A study of Mus musculus with 6 samples.

Results

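The genes described here are 40 genes of B cell receptor (BCR) signaling, chosen by name and known function: the signaling subunits of the receptor, its coreceptor and inhibitory receptors, and the kinases, phosphatases, adaptors, exchange factors and second messenger enzymes that act behind it. Earlier results of these data were known when they were chosen. All 40 were found by Entrez identifier among the 27179 genes of the count table, and 38 passed the expression limit and were tested among 11005 genes. The exceptions were Lair1 and Vav3. The samples were 6 RNA-seq libraries of germinal center (GC) B cells sorted from mouse spleen on days 7, 10 and 14 after immunization with the hapten NP coupled to the carrier protein KLH in alum. Each day had 1 WT library and 1 Il21r-/- library. Both groups had the C57BL/6 background by their labels. Il21r-/- mice lack a working receptor for interleukin-21 (IL-21), a cytokine made by T follicular helper cells. The study's methods describe a backcrossed germline line whose bone marrow, like that of WT mice, was placed in irradiated Ly5.1 recipients for nearly all experiments, so that all cells derived from the marrow, and not B cells alone, would lack the receptor. The sort kept B220+ NP-binding IgG1+ CD38- cells that stained for none of CD138, IgM, IgD or Gr1. The study's text names several mice of each genotype for the sort of day 7. It also gives a total per genotype, from separate immunizations, for the sorts of days 7, 10 and 14. How many stood behind the libraries of days 10 and 14 is not clear from it. P-values measure only the spread between these 6 libraries, which may be technical. The study's reporting summary describes mice matched for age and sex.

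Binding of antigen to the BCR lets Src-family kinases, mainly Lyn, phosphorylate the tails of CD79A and CD79B. Syk docks there and, with Btk and the adaptor BLNK, activates phospholipase C gamma 2, whose products open calcium stores and switch on protein kinase C beta, NF-kappaB, NFAT and Ras. Inhibitory receptors such as CD22 and CD72 recruit the phosphatase SHP-1 and restrain this cascade, and BCR signals are known to be damped in GC B cells relative to naive B cells.

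The cells carried the markers of their label. All 11 GC B cell markers examined passed the expression limit, with a summed level of 10337 to 12257 CPM (the CPM of edgeR, which divides counts by library size after TMM normalization). Reads counted on genes numbered 21353438 to 27435124 per library. Il21r, the targeted gene, was lower in Il21r-/- on each day, with 346, 263 and 247 CPM in WT against 106, 128 and 113 CPM in Il21r-/- on days 7, 10 and 14 (difference over 3 days 1.29 on the log2 scale, standard error 0.13, adjusted p = 0.00137). Log2 fold changes are WT minus Il21r-/- throughout, so that a negative value means a higher level in Il21r-/-. The genotype difference over 3 days came from edgeR's quasi-likelihood test with a linear effect of day, with p-values adjusted by the Benjamini-Hochberg method across all 11005 genes. A gene was called when its adjusted p was under 0.05. Values with day as a block are given where they change a call. In bulk RNA, fewer cells of a type and less RNA per cell cannot be told apart.

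The levels of the 40 genes spanned a wide range when compared per gene length, in RPKM (CPM per kilobase of gene). Cd79b and Cd79a stood first, with means over the 6 libraries of 2188 and 967 RPKM, followed by Csk with 271, Grb2 with 229 and Ptpn6 with 226 RPKM. The inhibitory receptors ran from 102 RPKM for Cd22 through 51.2 for Siglecg, 45.7 for Cd72 and 13.4 for Pecam1 to 0.84 for Cd5 and 0.25 for Lair1. Among the Src-family kinases Blk was highest with 132 RPKM, then Lyn with 75.3, Lck with 43.5 and Fyn with 20.3 RPKM. Of the Vav exchange factors, Vav1 stood at 43.6, Vav2 at 15.5 and Vav3 at 0.132 RPKM. Lair1, an inhibitory receptor for collagen, had 13 to 29 counts per library and Vav3 had 4 to 34, and neither was tested.

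**Figure D1:**
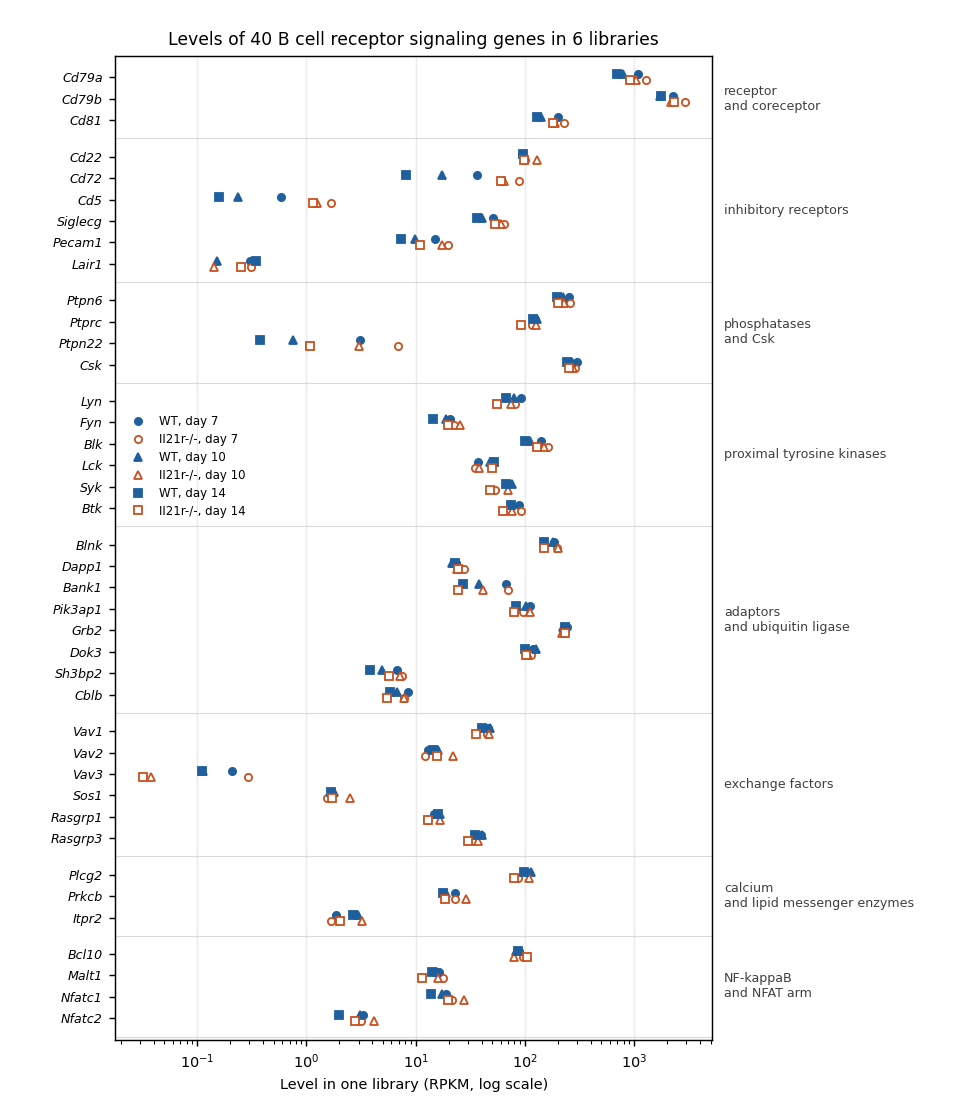
Level of each of the 40 genes in each of the 6 libraries in RPKM on a log axis, grouped by role, with WT as filled and Il21r-/- as open symbols and a symbol shape for each day. Cd79b and Cd79a sit farthest to the right with means of 2188 and 967 RPKM, and Cd72, Cd5 and Ptpn22 are spread widely, with the WT symbol left of the Il21r-/- symbol on each day.

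Over 3 days, 5 of the 38 members tested (13.2%) were called, all of them higher in Il21r-/-, where 4.52% of all genes tested were called in that direction. They were Cd72, Cd5, Siglecg and Pecam1, 4 of the 5 inhibitory receptors tested, and the phosphatase gene Ptpn22. As the members and lists were chosen with earlier results of these data known, these shares only describe the chosen genes. No member was called higher in WT by edgeR's quasi-likelihood test, where 1.4% of all genes were, and none by DESeq2's Wald test. The Wald test called 7 members, all higher in Il21r-/-, beside 633 of the 11005 genes in that direction and 318 higher in WT. At an unadjusted p under 0.05 the quasi-likelihood test counted 12 members, all higher in Il21r-/-. It counted 2356 of the 11005 genes in both directions. With day as a block, 13 members were called. Of these, 11 (28.9%) were higher in Il21r-/- and 2 (5.26%) higher in WT, beside 13.6% and 9.33% of all genes, and the 5 above were among them except Cd72. The median log2 fold change of the 38 members was -0.10, beside -0.0097 for all genes tested. Grouped by a list of 11 members that restrain signaling, put together with earlier results of these data known, the calls fell on 5 of its 10 members tested and on none of the 28 other members tested (7 of these had an unadjusted p under 0.05), and the median log2 fold changes were -0.33 and -0.04. With day as a block the calls were 4 of the 10 and 9 of the 28. As the list was made with results known, the split supports nothing. The count of calls rested on single libraries. Without WT on day 14 it fell to 1 (Cd72), without WT on day 10 or without Il21r-/- on day 14 to 3 (Cd72, Cd5 and Ptpn22), and without Il21r-/- on day 10 it rose to 12, of which 3 were higher in WT and Cd72 was not one. The calls over all genes moved too. They numbered 154 in favor of WT and 497 in favor of Il21r-/- with all libraries, 24 and 112 of 11007 without WT on day 14, 72 and 268 of 11019 without WT on day 10, 51 and 225 of 10985 without Il21r-/- on day 14, and 929 and 1164 of 10968 without Il21r-/- on day 10.

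**Figure D2:**
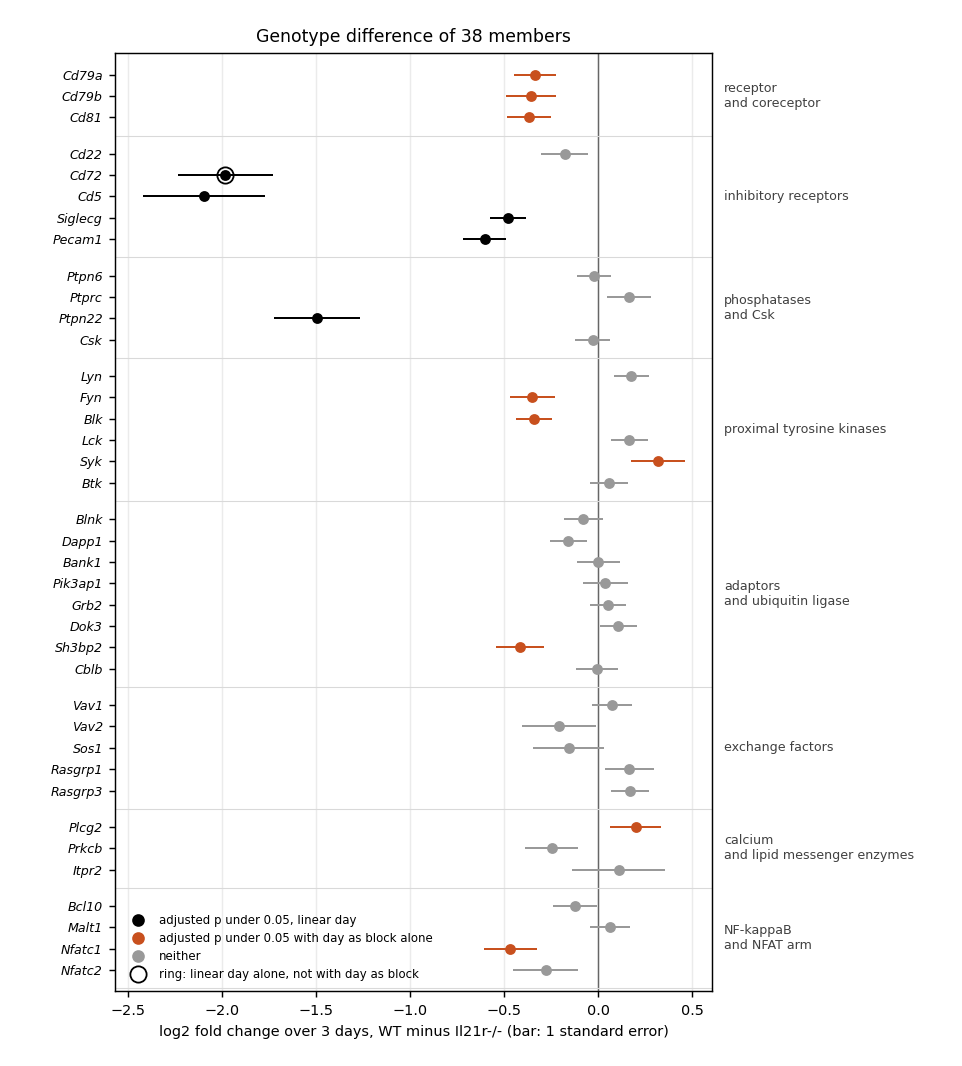
Log2 fold change over 3 days, WT minus Il21r-/-, of the 38 members tested, grouped by role, with bars of 1 standard error. Black points mark the 5 members called by edgeR with a linear day, all left of 0, orange points the 9 members that edgeR called with day as a block and not with a linear day, of which Syk and Plcg2 lie right of 0, and the ring marks Cd72, whose call was lost with the block.

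Cd72 encodes a C-type lectin of the B cell surface that recruits SHP-1. Its level was 54.4, 26.3 and 12.3 CPM in WT and 132, 96.2 and 91.3 CPM in Il21r-/- on days 7, 10 and 14. All Il21r-/- libraries were above all WT libraries, and Il21r-/- held 2.42, 3.65 and 7.44 times the WT level on the 3 days. The log2 fold change over 3 days was -1.98 (standard error 0.25, adjusted p = 0.00417), with an adjusted p of 0.129 with day as a block, of 0.0732 without a filter on low counts and of 0.117 without Il21r-/- on day 10. The other alternatives left it between 0.00123 and 0.0297 with edgeR. By day, edgeR's likelihood ratio test gave -1.27 on day 7 (adjusted p = 0.256), -1.87 on day 10 (adjusted p = 0.00382) and -2.89 on day 14 (adjusted p = 7.54e-07). WT fell 4.44-fold from day 7 to day 14 and Il21r-/- 1.44-fold, and the difference between these slopes had an adjusted p of 1. Cd72 lies on the minus strand of chromosome 4, and in GENCODE 41.6% of its 3422 exon bases lie in exons of Tesk1, a kinase gene on the plus strand. The counts were made on RefSeq genes instead, where Cd72 has 1503 bases. In RefSeq positions Cd72 runs from 43447724 to 43455102 and Tesk1 from 43442277 to 43448075. By these positions the 2 genes overlap only from 43447724 to 43448075, so the share of the 1503 bases in common must be below 41.6%. Its size was not computed. The kit does not mark strand, and reads from the shared stretch cannot be told apart. Tesk1 had 33.7, 24.8 and 13.2 CPM in WT against 49.4, 53.2 and 36.2 CPM in Il21r-/- (difference over 3 days -1.03 on the log2 scale, standard error 0.17, adjusted p = 0.0117). The log2 fold change of Cd72 is therefore uncertain to the extent that reads were shared, which was not tested.

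Cd5, a scavenger receptor known as a brake on antigen receptor signals in T cells and B-1 cells, had few reads. There were 33, 12 and 7 counts in WT and 79, 68 and 59 counts in Il21r-/- on days 7, 10 and 14, or 1.21, 0.488 and 0.328 CPM against 3.45, 2.59 and 2.37 CPM. The groups did not overlap. The log2 fold change over 3 days was the largest in size among the members, -2.10 (standard error 0.32, adjusted p = 0.00702), and the call held with day as a block (adjusted p = 3.01e-06). Cd5 was called on day 10 (log2 fold change -2.40, adjusted p = 0.00364) and on day 14 (-2.83, adjusted p = 0.00132) and had -1.51 on day 7 (adjusted p = 0.193). Without WT on day 14 its adjusted p over 3 days was 0.0619. T cells express Cd5, and of 17 T cell markers 13 were under 1 CPM in every library, Trat1 was at 0 in all of them, and Cd3e reached at most 0.0937 CPM. The 17 summed to 69.7 to 154 CPM in WT and 92.5 to 206 CPM in Il21r-/-, most of it from Cd2 (63.8 to 188 CPM), and 1 of the 4 tested, Lat, was called, higher in Il21r-/-.

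Siglecg encodes a sialic acid-binding inhibitory receptor of B cells, a relative of CD22. It stood at 128, 101 and 90.8 CPM in WT and at 158, 151 and 133 CPM in Il21r-/- on days 7, 10 and 14, without overlap. The log2 fold change over 3 days was -0.48 (standard error 0.10, adjusted p = 0.0244). The call was lost without WT on day 10 or day 14 and without Il21r-/- on day 7 or day 14 (adjusted p 0.0577 to 0.225), and with day as a block the adjusted p was 5.86e-05. Cd22 had 401, 427 and 413 CPM in WT and 428, 553 and 422 CPM in Il21r-/-, and its difference was not called (log2 fold change -0.18, standard error 0.13, adjusted p = 0.463).

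Pecam1, an adhesion receptor with inhibitory motifs, had 49.9, 32.8 and 24 CPM in WT and 65.5, 58.1 and 36.3 CPM in Il21r-/- on days 7, 10 and 14. It was higher in Il21r-/- on each day, although the groups overlapped because both fell over time. The log2 fold change over 3 days was -0.60 (standard error 0.11, adjusted p = 0.0177), and on day 10 it was -0.83 (adjusted p = 0.0168). The call over 3 days was lost without WT on day 10 or day 14 and without Il21r-/- on day 14 (adjusted p 0.0721 to 0.163). Endothelial cells and platelets express Pecam1, and the part of either in its difference was not tested. No endothelial marker was examined. The platelet markers Pf4, Itga2b, Gp9 and Ppbp were under 1 CPM in every library and were not tested. Of 10 erythroid and platelet markers 3 were tested, all of them hemoglobin genes. None was called (none had an unadjusted p under 0.05), with sums of 10.1 to 19.1 CPM in WT and 4.99 to 33.8 CPM in Il21r-/-.

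Ptpn22 encodes a tyrosine phosphatase that works with Csk to turn off Src-family kinases. It had 8.46, 2.03 and 1.03 CPM in WT and 18.7, 8.23 and 2.93 CPM in Il21r-/- on days 7, 10 and 14, so that Il21r-/- held 2.21, 4.05 and 2.84 times the WT level of the same day. Both genotypes fell, and the Il21r-/- library of day 14 lay between the WT libraries of days 7 and 10. The log2 fold change over 3 days was -1.49 (standard error 0.23, adjusted p = 0.00763), and on day 10 it was -2.01 (adjusted p = 0.000333). With day as a block the adjusted p was 2.91e-07, and without WT on day 14 it was 0.0535. The other phosphatases and Csk were not called. Csk, the kinase that holds Src-family kinases inactive, had 675, 609 and 546 CPM in WT and 653, 632 and 579 CPM in Il21r-/- (log2 fold change -0.03, adjusted p = 0.89). Ptpn6, the gene of SHP-1, had a log2 fold change of -0.02 (adjusted p = 0.912) and Ptprc, the gene of the activating phosphatase CD45, 0.16 (adjusted p = 0.477).

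**Figure D3:**
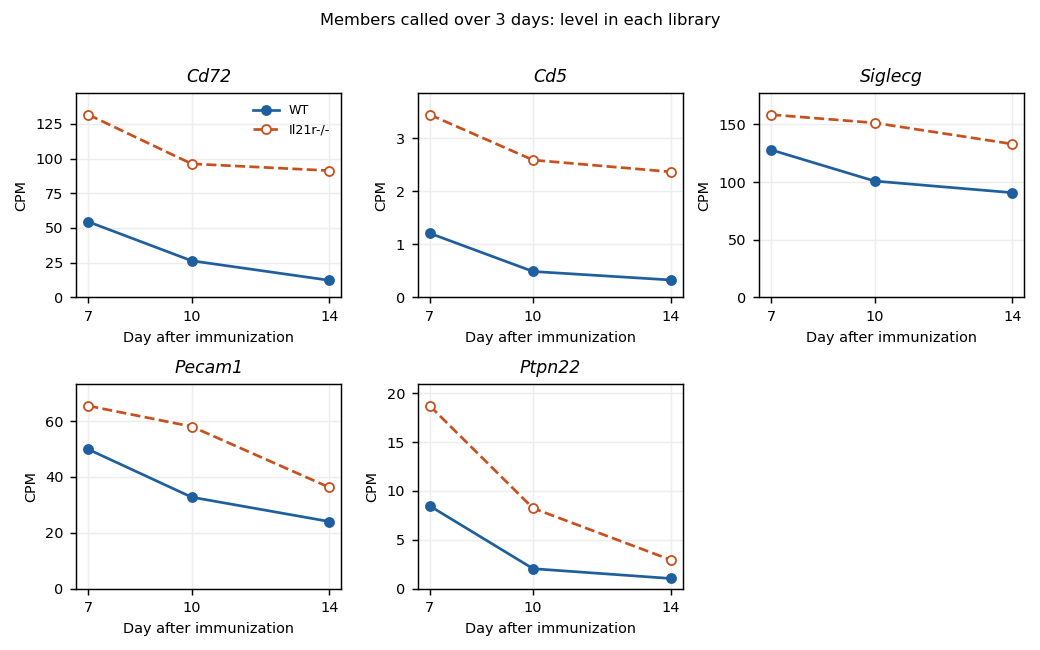
CPM in each library of the 5 members called over 3 days, by day after immunization, with WT as filled points on solid lines and Il21r-/- as open points on dashed lines, 1 library per point. The Il21r-/- point lies above the WT point of the same day in every panel, from 1.24 times (Siglecg, day 7) to 7.44 times (Cd72, day 14).

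Because Cd72, Cd5, Ptpn22 and Siglecg moved the same way, the windows of 250 bases before their transcript starts in RefSeq on GRCm38.p6 were searched, 6 windows in all, of which 5 are shown. Pecam1 is not shown, as no RefSeq window was found for it. Some starts lie inside the gene. The Cd72 window and both Ptpn22 windows fall wholly within the span of their gene, and those of Cd5 and Siglecg reach into it. The IL-21 receptor is known to signal through STAT factors, and PU.1 is a transcription factor of B and myeloid cells. Each sequence runs 5′ to 3′ on the strand of its gene and ends before the start, or before the gene's first exon base in GENCODE where that comes earlier (2 bases left out for Cd72, 28 for Cd5 and 35 for Siglecg). Capitals mark TTCNNNGAA, the palindromic core that STAT factors bind, and GAGGAA on either strand (TTCCTC on the strand shown), a core bound by PU.1.
Cd72, chr4:43454629-43454876, minus strand: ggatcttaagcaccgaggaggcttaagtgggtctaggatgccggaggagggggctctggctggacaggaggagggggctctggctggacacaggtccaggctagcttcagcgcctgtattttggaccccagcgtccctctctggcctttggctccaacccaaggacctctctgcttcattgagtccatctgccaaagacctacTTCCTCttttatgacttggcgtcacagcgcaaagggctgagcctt
Cd5, chr19:10739003-10739224, minus strand: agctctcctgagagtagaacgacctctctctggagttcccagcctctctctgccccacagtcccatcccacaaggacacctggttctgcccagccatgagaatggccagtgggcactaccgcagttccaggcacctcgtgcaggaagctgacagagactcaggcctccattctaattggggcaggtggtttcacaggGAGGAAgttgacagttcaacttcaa
Ptpn22, upstream start, chr3:103859545-103859794, plus strand: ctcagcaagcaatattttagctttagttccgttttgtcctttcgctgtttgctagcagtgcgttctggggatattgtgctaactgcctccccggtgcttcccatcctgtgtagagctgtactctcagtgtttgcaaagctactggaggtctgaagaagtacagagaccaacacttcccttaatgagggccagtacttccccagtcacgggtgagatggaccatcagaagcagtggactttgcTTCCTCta
Ptpn22, downstream start, chr3:103860027-103860276, plus strand: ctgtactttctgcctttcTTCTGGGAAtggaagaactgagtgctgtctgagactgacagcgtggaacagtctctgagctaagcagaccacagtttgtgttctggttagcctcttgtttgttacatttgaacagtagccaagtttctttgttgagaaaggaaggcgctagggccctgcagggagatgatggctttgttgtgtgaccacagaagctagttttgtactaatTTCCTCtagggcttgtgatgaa
Siglecg, chr7:43407989-43408203, plus strand: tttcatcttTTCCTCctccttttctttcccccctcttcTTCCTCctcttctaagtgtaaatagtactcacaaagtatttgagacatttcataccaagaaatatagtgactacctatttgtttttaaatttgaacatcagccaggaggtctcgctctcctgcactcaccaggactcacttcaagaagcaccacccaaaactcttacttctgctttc
TTCNNNGAA occurred in 1 of the 6 windows, at position -232 of the downstream Ptpn22 start, as TTCTGGGAA. It stood in 2 of the 46 windows of members (4.35%), beside 7.02% of all 32851 windows. GAGGAA or TTCCTC began at -47 in Cd72, -53 in Cd5, -8 and -22 in the Ptpn22 windows, and -241 and -212 in Siglecg, counted from the transcript start. The second Siglecg window, which overlaps the first and is not shown, held neither motif. GAGGAA on either strand stood in 22 of the 46 windows of members (47.8%), beside 23.3% of all windows. A match describes the letters and is not a bound site.

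The receptor subunits and coreceptor lay close together. Cd79a had 1441, 1047 and 928 CPM in WT and 1706, 1364 and 1212 CPM in Il21r-/- on days 7, 10 and 14. Cd79b had 2711, 2079 and 2108 CPM against 3476, 2601 and 2756 CPM. Cd81, a tetraspanin of the cell surface, had 303, 212 and 196 CPM against 346, 286 and 276 CPM. Each was higher in Il21r-/- on each day, while the groups overlapped across days. The log2 fold changes over 3 days were -0.34 for Cd79a, -0.36 for Cd79b and -0.37 for Cd81 (adjusted p 0.109 to 0.168). With day as a block all 3 were called (adjusted p 0.000659 to 0.00119).

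The proximal tyrosine kinases did not share a direction. Blk had 347, 273 and 245 CPM in WT and 399, 371 and 320 CPM in Il21r-/- (-0.34 on the log2 scale, standard error 0.10, adjusted p = 0.0771, 0.0442 by DESeq2's Wald test, and 0.00111 with day as a block). Fyn had 75.3, 70.5 and 53.1 CPM against 83.4, 94.8 and 73.3 CPM (-0.35, standard error 0.12, adjusted p = 0.131, and 0.00384 with the block). Syk, the kinase that binds the phosphorylated receptor tails, had 363, 400 and 354 CPM in WT and 279, 368 and 250.5 CPM in Il21r-/- (0.32, standard error 0.14, adjusted p = 0.25, and 0.00232 with the block). Blk and Fyn were thus higher in Il21r-/- on each day and Syk higher in WT on each day. Lyn, the main initiating kinase, had 321, 272 and 234 CPM in WT and 282, 260 and 192 CPM in Il21r-/- (0.18, adjusted p = 0.317). Lck had a log2 fold change of 0.17 and Btk, the Tec-family kinase, of 0.05, and neither was called with or without the block.

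Among the 8 genes of adaptors and the ubiquitin ligase Cblb, none was called with a linear day, and their log2 fold changes ran from -0.42 to 0.11. Sh3bp2, an adaptor for Syk and phospholipase C, had 22.9, 16.6 and 12.9 CPM in WT and 25.2, 24.2 and 19.2 CPM in Il21r-/- (-0.42, standard error 0.13, adjusted p = 0.106, and 0.00898 with day as a block). Dapp1, an adaptor that binds phosphoinositides, had 72.7, 66.7 and 70.1 CPM against 84.6, 74.1 and 75.6 CPM (-0.16, standard error 0.10, adjusted p = 0.391). All its Il21r-/- values were above all its WT values. Blnk, Pik3ap1, Grb2, Dok3 and Cblb had log2 fold changes between -0.08 and 0.11.

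The enzymes and factors farther down the cascade were not called by edgeR's quasi-likelihood test with a linear day and the limit on average level. The 5 exchange factors tested had log2 fold changes of -0.21 to 0.17. Plcg2, the gene of phospholipase C gamma 2, had 438, 491 and 422 CPM in WT and 372, 468 and 339 CPM in Il21r-/- (0.20, standard error 0.13, adjusted p = 0.439, and 0.0428 with day as a block). Prkcb, which lies 2.97 Mb from Il21r on chromosome 7, had 202, 166 and 158 CPM against 201, 257 and 165 CPM (-0.25, adjusted p = 0.363). Nfatc1, a calcium-dependent transcription factor, had 140, 130 and 102 CPM in WT and 158, 207 and 145 CPM in Il21r-/-, without overlap (-0.47, standard error 0.14, adjusted p = 0.0946, and 0.000385 with the block). Its adjusted p with a linear day was 0.0284 by DESeq2's Wald test, 0.0432 without a filter on low counts, and 0.032 and 0.0352 without Il21r-/- on day 7 and on day 10. Nfatc2 had -0.28 (adjusted p = 0.403), Bcl10 -0.12 and Malt1 0.06. In all, the values of the 2 genotypes did not overlap for 5 of the 38 members (Cd72, Cd5, Siglecg, Dapp1 and Nfatc1), all higher in Il21r-/-. That share of 13.2% was near the 10% of all genes tested that did so in this direction, and no member did so in the other, where 8.33% of all genes did.

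**Figure D4:**
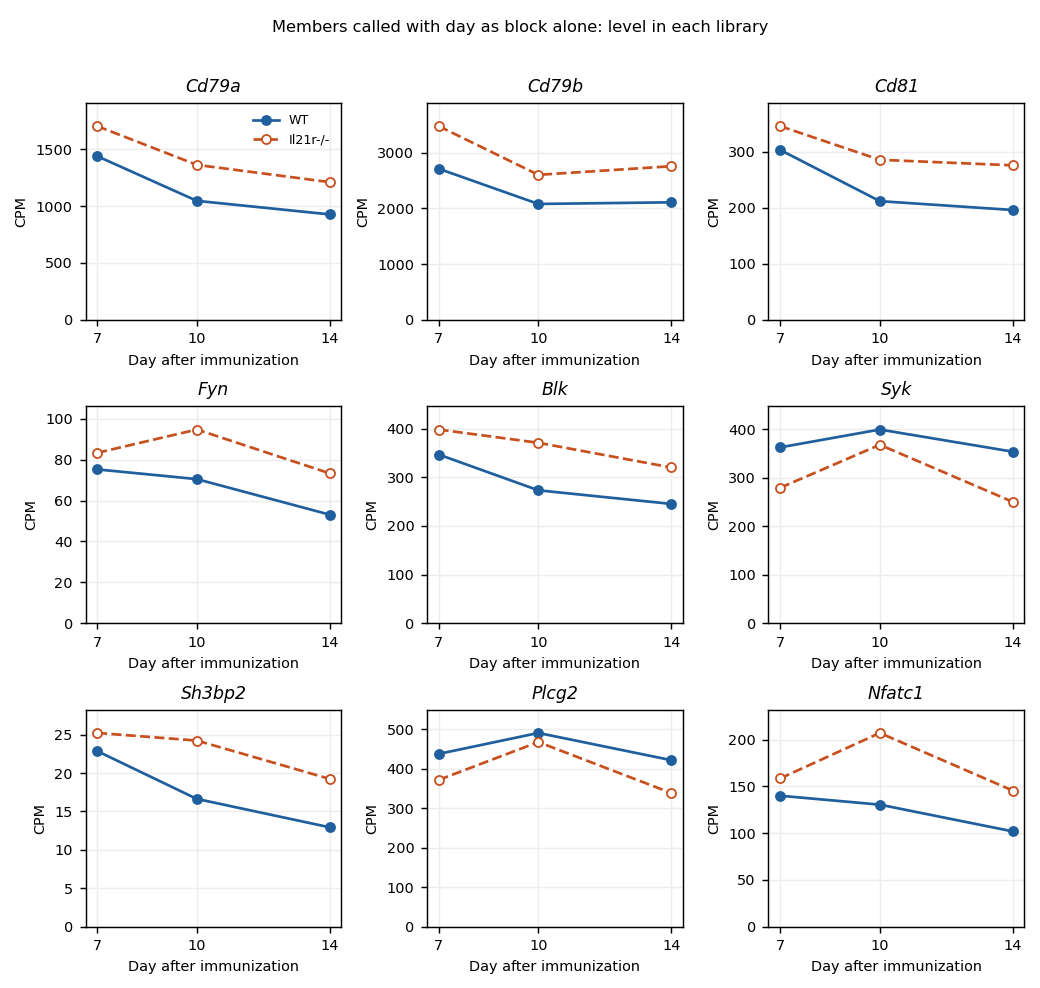
CPM in each library of the 9 members that edgeR called with day as a block but not with a linear day, by day after immunization, with WT as filled points on solid lines and Il21r-/- as open points on dashed lines. Il21r-/- lies above WT on each day in 7 panels and below it on each day for Syk and Plcg2. From day 7 to day 10, Fyn and Nfatc1 fall in WT and rise in Il21r-/-. With a linear day, DESeq2's Wald test called Blk (adjusted p = 0.0442) and Nfatc1 (adjusted p = 0.0284).

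Single days compared 1 library of each genotype, with the spread taken from all 6 libraries. On day 7 no member was called by edgeR's likelihood ratio test, where 1.07% of all genes were. At an unadjusted p under 0.05 this test counted 3 members, beside 606 of the 11005 genes. On day 10, 4 members (10.5%) were called, Cd72, Cd5, Pecam1 and Ptpn22, all higher in Il21r-/-, where 2.6% of all genes were in that direction. On day 14, 2 members (5.26%), Cd72 and Cd5, were called, higher in Il21r-/-, beside 2.55% of all genes. The median log2 fold change of the 38 members was -0.04, -0.15 and -0.03 on the 3 days. With the dispersion taken from the fit with day as a block, 2 members were called on day 7 (Cd5 and Ptpn22, beside 2% of all genes higher in Il21r-/-), 6 on day 10 (beside 5.64%) and 8 on day 14. Of those 8, Syk was higher in WT, beside 3.51% of all genes, and 7 were higher in Il21r-/-, beside 6.08%. Cd72 was among those 7.

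From day 7 to day 14, 4 members (10.5%) fell in the fit over both genotypes, where 3.36% of all genes fell. Bank1, a scaffold that links Lyn to calcium channels, had 220, 123 and 88.9 CPM in WT and 228, 135 and 78.5 CPM in Il21r-/- on days 7, 10 and 14. That was a 2.47-fold fall in WT and a 2.9-fold fall in Il21r-/-, a log2 slope of -0.20 per day (adjusted p = 0.00465), and its genotypes differed by a log2 fold change of 0.0001 (standard error 0.11). Ptpn22 fell 8.22-fold in WT and 6.39-fold in Il21r-/- (slope -0.41 per day, adjusted p = 0.00465). Pecam1 fell 2.08-fold and 1.81-fold (slope -0.14 per day, adjusted p = 0.0133). Lyn fell 1.37-fold and 1.47-fold (slope -0.07 per day, adjusted p = 0.0446), and its call was lost with DESeq2 size factors. Slopes were negative for 31 of the 38 members, beside 5443 of all 11005 genes. Lck had the highest, 0.07 per day (adjusted p = 0.0512). The linear day term of the model has days 7, 10 and 14 only from 1 library per genotype, and without WT on day 7 or on day 14 no member was called, while without Il21r-/- on day 10 there were 19. Over all genes the calls were 0 of 11019 without WT on day 7, 2 rising and 3 falling without WT on day 14, and 910 rising and 1214 falling of 10968 without Il21r-/- on day 10. The slopes of the 2 genotypes differed for no member by edgeR's quasi-likelihood test, and for none of the 11005 genes. Cd72 alone among the members had an unadjusted p under 0.05, beside 118 of all genes.

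**Figure D5:**
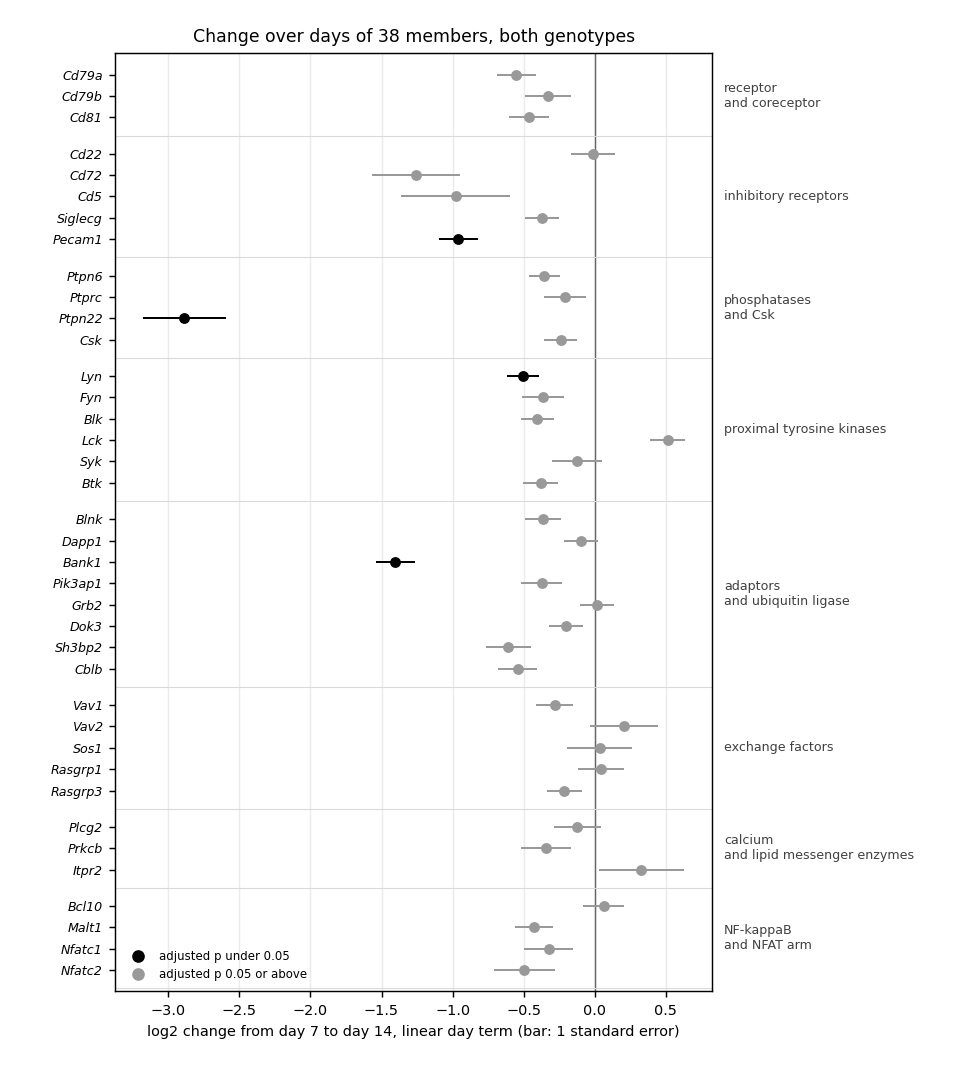
Log2 change from day 7 to day 14 by the linear day term, over both genotypes, of the 38 members tested, with bars of 1 standard error. Black points mark Pecam1, Ptpn22, Lyn and Bank1, all left of 0 with an adjusted p under 0.05, and 31 of the 38 points lie left of 0.

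Of 105 other genes of the BCR pathway, 95 were tested, and 5 were called over 3 days, 1 (1.05%) higher in WT and 4 (4.21%) higher in Il21r-/-, beside 1.4% and 4.52% of all genes. Nck2, an adaptor of the cytoskeleton, was higher in WT, with 12.2, 9.23 and 7.63 CPM against 6.33, 5.45 and 3.61 CPM in Il21r-/- (0.92 on the log2 scale, standard error 0.15, adjusted p = 0.00955). Higher in Il21r-/- were Sla, an adaptor known to reduce antigen receptor levels (-0.77, adjusted p = 0.012), Dock10, a guanine nucleotide exchange factor (-0.84, adjusted p = 0.0152), Fcrl5, an Fc receptor-like protein (-1.83, adjusted p = 0.0325), and the membrane adaptor Lime1 (-0.96, adjusted p = 0.00216). In GENCODE, Lime1 shares 92.5% of its exon bases with Zgpat on the same strand. The counts were made on RefSeq genes, where this share was not computed. The level of Lime1 is uncertain to the extent that reads were shared. With day as a block 24 of the 95 were called, of which 7 (7.37%) had their higher level in WT and 17 (17.9%) in Il21r-/-, beside 9.33% and 13.6% of all genes. Over days 13 of the 95 (13.7%) fell, beside 3.36% of all genes, and slopes were negative for 73 of the 95. The median log2 fold change of the 95 between genotypes was -0.06.

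Genes of other B cell states differed between the same libraries. Of 10 markers of B cells outside the GC, all tested, 6 were called higher in Il21r-/- and Ighm higher in WT, and they summed to 1248, 774 and 572 CPM in WT against 1528, 1417 and 971 CPM in Il21r-/- on days 7, 10 and 14. Ighd was between 0.983 and 1.68 CPM in all libraries. Of 12 light zone genes, 5 were called higher in Il21r-/-, with sums of 1094 to 1405 CPM in WT and 1855 to 2189 CPM in Il21r-/-. Of 12 dark zone genes none was called by edgeR's quasi-likelihood test (7 had an unadjusted p under 0.05), with sums of 3556 to 3863 CPM in WT and 3091 to 3474 CPM in Il21r-/-. Of 12 myeloid markers 4 were tested and 1 was called, higher in Il21r-/-, with sums of 8.54 to 14.7 CPM and 12.8 to 20.6 CPM. Of 6 plasma cell markers 4 were tested, and Xbp1 was higher in Il21r-/- and Prdm1 in WT, with sums of 2524 to 2739 CPM and 2774 to 3621 CPM. The part of any of these in the differences of Cd72, Cd5, Siglecg, Pecam1 and Ptpn22 was not tested.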

How the data were processed

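RNA-seq reads of 6 libraries were processed by the authors, who per the labels used CASAVA 1.8.2 and featureCounts on mm10, and per the methods aligned single-end TruSeq reads with Rsubread, counted them on its inbuilt RefSeq genes and pooled technical replicates. They deposited whole-number counts per gene without normalization. Strand and multi-mapping settings are not given in the sources used here. From these counts, CPM, RPKM and tests were computed with R 4.3.3, edgeR 4.0.16, limma 3.58.1 and DESeq2 1.42.0.

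Symbols and positions came from RefSeq (GRCm38.p6) for 25275 identifiers and from GENCODE for 18. The 1886 others held 1.57 to 2.24% of a library's counts and stayed in. Following the study's methods, the tests left out genes whose average log2 CPM was under 0, Ig variable genes, Xist and Y-linked genes. Dispersions came from genotype plus linear day (3 residual degrees of freedom, common biological coefficient of variation 13.1%). For single days, each day had its own mean and a likelihood ratio test was used.

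The members and lists were chosen with earlier results of these data known. Members named with values in every library were those called in the main fits or with day as a block, the 5 with the largest log2 fold changes, the 3 with the highest RPKM and those without overlap between genotypes. Other members with values were named after these were seen. After subtraction of genotype means, the correlation across genes between the 2 libraries of one day was 0.64 (day 7), 0.413 (day 10) and 0.645 (day 14). These correlations hold the change over days that the linear day term also models, so they cannot show a day effect beyond it. The fit with day as a block pairs the 2 libraries of a day. The alternatives were that fit, DESeq2 size factors and Wald test, other filters, a linear day in the day-wise fit, and leaving out each library. The tests were checked on simulated counts.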

Additional observations from a re-analysis of the deposited data

How the results depend on the processing

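The 5 members called over 3 days stayed at 5 with DESeq2 size factors, 4 with at least 10 counts in every library (Cd5 was not tested), 5 without a filter (Nfatc1 in place of Cd72) and 7 with DESeq2's Wald test. Over all genes, calls higher in Il21r-/- and in WT were 492 and 178 of 11005 with these size factors. They were 426 and 146 of 11137 with at least 10 counts, 708 and 283 of 16909 without a filter, and 633 and 318 of 11005 with the Wald test. With day as a replicate block there were 13 (Cd72 lost, 9 gained). Leaving out each library gave 1 to 12. The median log2 fold change ran from -0.14 to -0.03 over all alternatives. The members that fell over days, 4, became 3 with DESeq2 size factors (Lyn lost), 8 without a filter and 8 with DESeq2's Wald test (1 of them, Lck, rising in both). Leaving out each library gave 0 to 19. Over all genes, 624 fell and 245 rose of 16909 without a filter, and 586 fell and 284 rose of 11005 with the Wald test. Single-day calls went from 0 to 2 on day 7, from 4 to 6 on day 10 and from 2 to 8 on day 14 when the dispersion came from the replicate block, and on day 14 to 1 with at least 10 counts in every library. Leaving out each library from the dispersion gave 0 to 2, 3 to 6 and 2 to 5. Over all genes, calls higher in Il21r-/- then ran from 86 to 165, 224 to 491 and 226 to 479 of 11005. Calls higher in WT ran from 18 to 55, 43 to 152 and 62 to 225. With at least 10 counts, day 14 had 217 calls higher in Il21r-/- and 69 higher in WT of 11137. No alternative run gave a difference in day slopes, for the members or for any other gene tested. Bank1, at 0.0001, was -0.0061 with the replicate block and ran from -0.124 to 0.092 leaving out each library, and was never called. The other members chosen by the naming rule kept their direction in the alternatives run for them. The cause of these changes was not tested, beyond fewer libraries in the fits that leave one out. Depth limits Cd5 most among the members called (7 to 79 counts).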
